A study of Homo sapiens with 17 samples.

Results

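The SLC25 mitochondrial carriers were followed across the acRIP-seq libraries of HEK293T, a cell line from human embryonic kidney. In acRIP-seq, poly(A) RNA is pulled down with an antibody against N4-acetylcytidine (ac4C) and sequenced beside the RNA before pull-down (input) and beside a pull-down with control rabbit immunoglobulin G (IgG). Members were all genes whose symbol in the count table is SLC25A and a number, 45 of 23368 genes. SLC25A51, SLC25A52 and SLC25A53 stand in the table under their older names MCART1, MCART2 and MCART6, UCP1 to UCP3, MTCH1 and MTCH2 are relatives with other symbols, and none of these counted as a member. Cells labelled WT gave 3 input, 3 anti-ac4C (IP) and 2 IgG libraries. Cells given siRNA to TDP43, an RNA-binding protein, are called siTDP43 and gave 3 input, 3 IP and 3 IgG libraries. The siRNA was delivered by lipid transfection into the same line, and no control siRNA is named for WT, so that transfection, lower TDP43 and a batch of cells or libraries cannot be told apart here. No source says that libraries of a group came from separate cultures, so p-values measure the spread between libraries, which may be technical.

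Levels are CPM, counts scaled to a library of fixed size after TMM scaling, and CPM per kb of exon where genes are compared with each other. TARDBP, the gene of TDP43, had 150, 157 and 151 CPM in WT input and 98.7, 102 and 106 CPM in siTDP43 input, or 67.2% of WT. Total counts were 3013989 to 36583436 per library and lowest in siTDP43 IgG, where 30 to 32 members had any count against 39 to 41 in the inputs. From 81.3 to 95.9% of the counts of 1 to 20 in a library were even, so a count of 2 can be a single read pair, and counting intervals were taken on halved counts, rounded up. A group with at most 3 counts in every library was taken as at the floor. Folds against a group at 0 are bounds against 3 counts in each of its libraries.

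SLC25 proteins are carriers of the inner mitochondrial membrane, encoded in the nucleus, made in the cytosol and imported through the TOM complex, the small TIM chaperones and TIM22. They exchange metabolites between cytosol and matrix, among them ADP and ATP, phosphate, citrate, amino acids, cofactors, iron and glutathione. ac4C is written on RNA by the acetyltransferase NAT10, and the study asked whether TDP43 takes part in placing it on mRNAs.

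Promoters are shown for the 2 members with the largest rises in input RNA, SLC25A24 and SLC25A46, and for the member with the largest fall, SLC25A33. RefSeq windows (GRCh38.p14) run from 250 bases before to 50 bases after a start site, and 37 of 45 members had at least 1. The windows are chr1:108200294-108200593 (minus strand), chr5:110738757-110739056 (plus strand) and chr1:9539215-9539514 (plus strand), and capitals mark ACTTCCGG, a core of ETS sites such as those of GABPA, a regulator of nuclear genes for mitochondria.
SLC25A24 promoter: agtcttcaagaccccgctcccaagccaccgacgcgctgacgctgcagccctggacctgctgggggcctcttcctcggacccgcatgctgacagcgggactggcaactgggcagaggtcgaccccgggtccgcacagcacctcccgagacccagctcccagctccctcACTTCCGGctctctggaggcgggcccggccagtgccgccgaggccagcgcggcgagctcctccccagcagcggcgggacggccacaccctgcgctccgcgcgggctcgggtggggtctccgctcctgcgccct
SLC25A46 promoter: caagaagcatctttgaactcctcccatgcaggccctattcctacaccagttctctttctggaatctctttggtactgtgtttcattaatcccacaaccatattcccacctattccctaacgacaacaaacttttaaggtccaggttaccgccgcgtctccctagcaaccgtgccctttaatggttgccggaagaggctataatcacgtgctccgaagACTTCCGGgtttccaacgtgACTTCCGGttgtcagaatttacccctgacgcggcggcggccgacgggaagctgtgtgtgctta
SLC25A33 promoter: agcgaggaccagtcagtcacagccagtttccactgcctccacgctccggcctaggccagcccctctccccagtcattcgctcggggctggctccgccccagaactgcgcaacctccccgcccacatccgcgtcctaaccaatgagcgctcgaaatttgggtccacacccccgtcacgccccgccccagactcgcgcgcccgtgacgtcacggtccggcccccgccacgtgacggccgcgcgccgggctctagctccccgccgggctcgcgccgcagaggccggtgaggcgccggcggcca

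Searched on both strands, ACTTCCGG was found in 4 of 48 member windows (8.33%), those of SLC25A17, SLC25A24, SLC25A26 and SLC25A46, and in 4.14% of all 35116 windows. SLC25A24 has a further window without a match. The core CGCATGCG of NRF1 sites was in 0 of 48 member windows and in 2.02% of all, and the core AAGATGGC of YY1 sites was in 2 (4.17%, SLC25A3 and SLC25A44) and in 2.89% of all. A match is a run of letters, not a site shown to be bound. Of 8 listed regulators of mitochondrial genes, 5 rose and 2 fell in siTDP43 input, against 38.6% higher and 40.6% lower of all genes tested. NRF1 rose (log2 fold change 1.35, adjusted p 6.59e-16), as did GABPA (0.91, adjusted p 1.61e-13), the ETS factor, TFAM (0.78, adjusted p 1.45e-13), the packaging factor of mitochondrial DNA, PPARGC1B (0.85) and ESRRA (0.58). The coactivator genes PPRC1 (-0.72, adjusted p 3.22e-07) and PPARGC1A (-0.82, adjusted p 0.0496) fell. GABPB1, which encodes the partner subunit of GABPA, had 0.01 (adjusted p 0.876).

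The comparison of inputs asked which carrier mRNAs differed in abundance after TDP43 siRNA. Of 38 members tested, 17 rose and 14 fell (adjusted p under 0.05, edgeR). That is 44.7% higher against 38.6% of all genes tested, and 36.8% lower against 40.6% of all, so the members were near the background in both directions. Their median log2 fold change was 0.04 against -0.05 over all genes, and total count scaling turned it to -0.05 with 15 higher and 15 lower. In bulk RNA, fewer transcripts per cell and fewer cells of a state cannot be told apart.

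**Figure D1:**
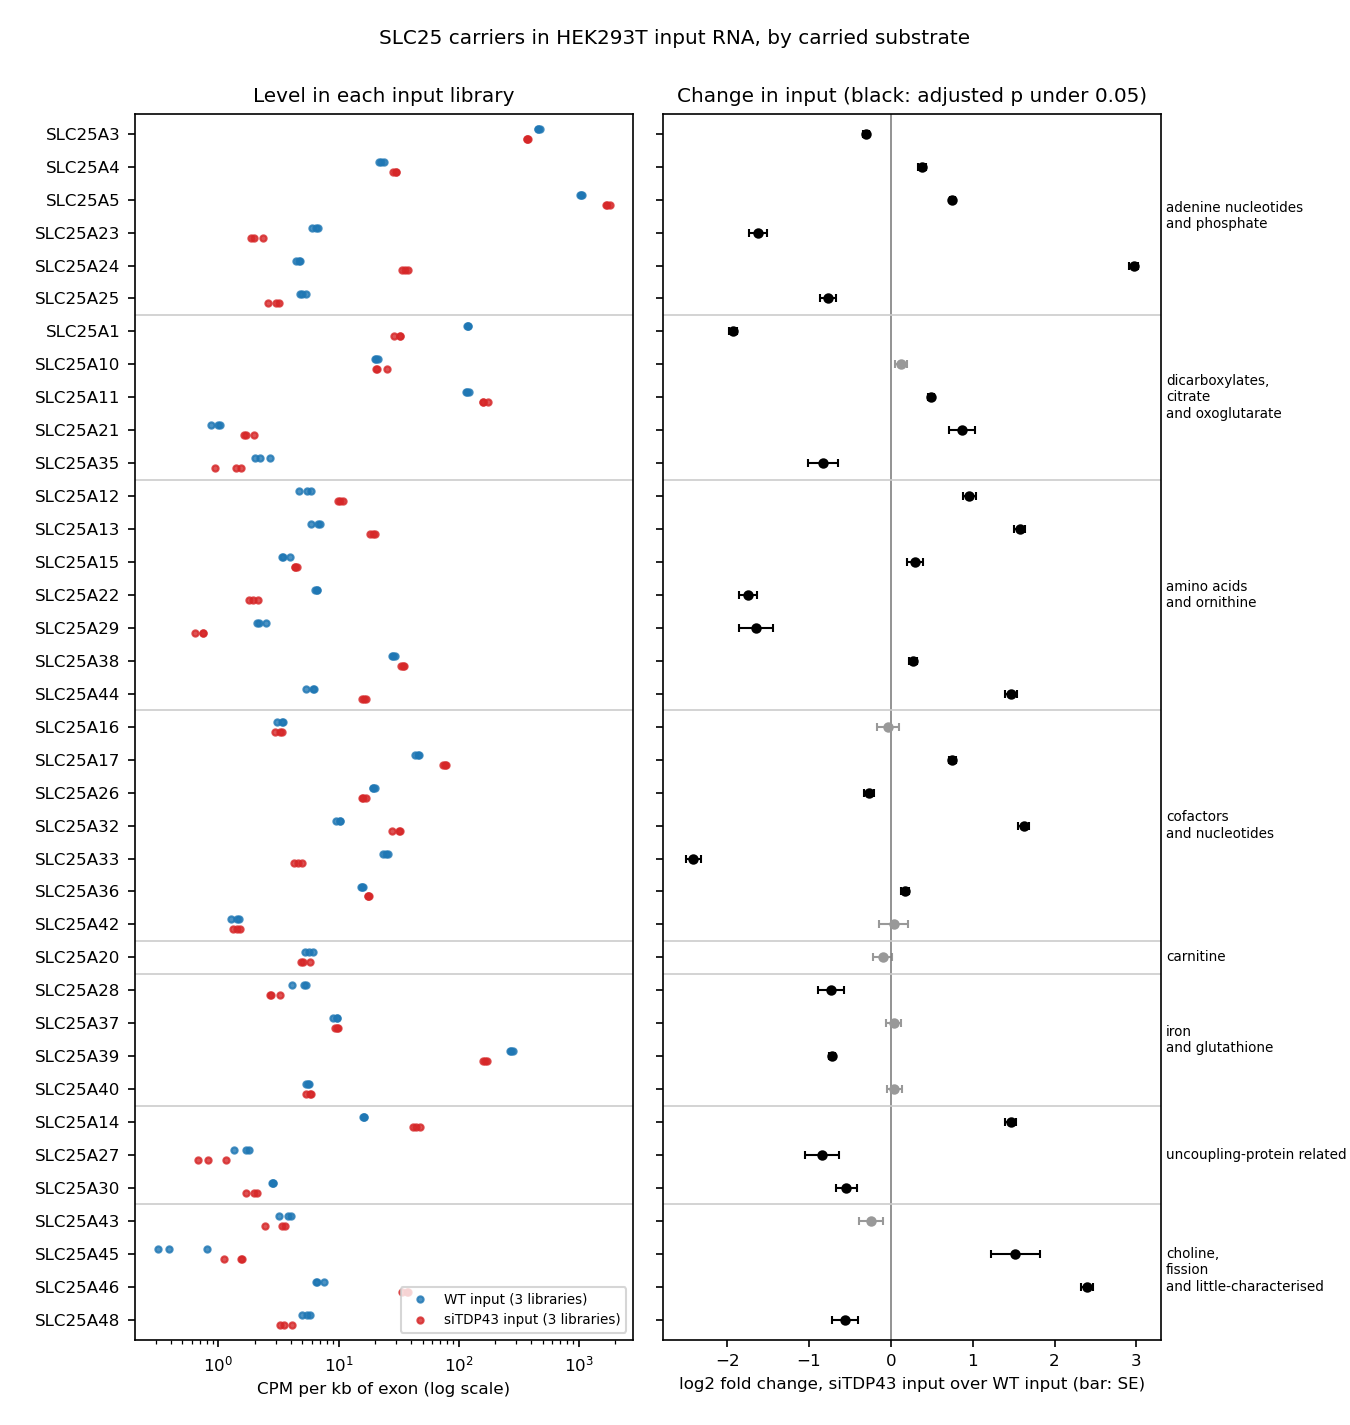
Left, level of 37 of the 38 tested members in each input library, in CPM per kb of exon on a log axis (blue WT, red siTDP43, 3 libraries each). Right, log2 fold change of siTDP43 input over WT input with its SE, black where the adjusted p was under 0.05. Members are grouped by what they carry, and each of the 4 groups of at least 5 members holds members called on both sides of 0.

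Among the carriers of adenine nucleotides and phosphate, 3 of 6 tested members rose and 3 fell, against 38.6% and 40.6% of all genes. SLC25A5, the ADP/ATP carrier ANT2 (hg19 chromosome X, 118602363 to 118605359), had 1430, 1390 and 1410 CPM in WT input and 2290, 2330 and 2470 CPM in siTDP43 input, a log2 fold change of 0.75 (SE 0.04, adjusted p 1.04e-18). It was the most abundant member per kb in both genotypes, at 44.7% of the summed CPM per kb of all members in WT input and 59.3% in siTDP43 input. Its exons share 227 bases with SLC25A5-AS1 on the other strand, and it is not known whether counting used strand. SLC25A4, the ADP/ATP carrier ANT1 of heart and muscle (chromosome 4, 186064417 to 186071538), had 105, 101 and 96.6 CPM in WT and 132, 134 and 126 CPM in siTDP43 (log2 fold change 0.38, SE 0.05). SLC25A6, the ADP/ATP carrier ANT3, is listed on both X and Y, and uniquely aligned reads gave 0 to 2 counts in every library, so its level cannot be read from this table. SLC25A3, the phosphate carrier, was next to SLC25A5 per kb and was lower in siTDP43 input (-0.31, SE 0.04).

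The calcium-regulated ATP-Mg/phosphate carriers moved apart from each other. SLC25A24 (chromosome 1, 108677447 to 108742974) had 17.3, 17.7 and 16.4 CPM in WT input and 127, 133 and 141 CPM in siTDP43 input. The groups were far apart, and the log2 fold change of 2.97 (SE 0.06, adjusted p 7.19e-28) was the largest rise of any member. SLC25A23 (chromosome 19, 6440075 to 6459781) fell from 23.2, 22.5 and 20.9 CPM to 8.17, 6.81 and 6.45 CPM (-1.62, SE 0.11, adjusted p 1.3e-14). SLC25A25 fell as well, from 18.7 to 20.8 CPM to 10.2 to 12.4 CPM (-0.77, SE 0.10).

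Of 5 tested carriers of dicarboxylates, citrate and oxoglutarate, 2 rose and 2 fell, against 38.6% and 40.6% of all genes. SLC25A1, which exports citrate for lipid synthesis (chromosome 22, 19163088 to 19166338), had 228, 226 and 226 CPM in WT input and 61.6, 61.9 and 54.9 CPM in siTDP43 input, a log2 fold change of -1.93 (SE 0.05, adjusted p 2.58e-25). Only SLC25A5, SLC25A3 and SLC25A39 were above it per kb in WT input. SLC25A11, the oxoglutarate/malate carrier, rose from 208 to 218 CPM to 288 to 317 CPM (0.49, SE 0.04). SLC25A21, the oxodicarboxylate carrier, rose by 0.87 (SE 0.16), SLC25A35 was lower by log2 fold change -0.83 (SE 0.19), and SLC25A10, the dicarboxylate carrier, had 0.12 (SE 0.07, adjusted p 0.129).

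Of 7 tested carriers of amino acids and ornithine, 5 rose and 2 fell, against 38.6% and 40.6% of all genes. Both aspartate/glutamate carriers of the malate-aspartate shuttle rose, SLC25A12 by a log2 fold change of 0.96 (SE 0.08) and SLC25A13 by 1.57 (SE 0.07, adjusted p 5.46e-19). SLC25A44, a carrier of branched-chain amino acids (chromosome 1, 156163730 to 156182587), had 22.8, 22.4 and 19.4 CPM in WT input and 58.9, 61.8 and 57.4 CPM in siTDP43 input (1.47, SE 0.07). SLC25A22, a glutamate carrier (chromosome 11, 790475 to 798269), fell from 20.8, 21.5 and 21.5 CPM to 6.25, 5.78 and 6.95 CPM (-1.74, SE 0.11, adjusted p 1.75e-15). SLC25A29, a carrier of basic amino acids (chromosome 14, 100757453 to 100772860), fell from 4.96, 5.11 and 5.84 CPM to 1.77, 1.5 and 1.77 CPM (-1.65, SE 0.20). The ornithine carrier SLC25A15 and the glycine carrier SLC25A38 rose by 0.30 and 0.27.

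Of 8 tested carriers of cofactors and nucleotides, 4 rose and 2 fell, against 38.6% and 40.6% of all genes. SLC25A33, a pyrimidine nucleotide carrier (chromosome 1, 9599528 to 9642831), had 34.4, 35.9 and 37.4 CPM in WT input and 6.18, 7.29 and 6.74 CPM in siTDP43 input. This was the largest fall of any member, a log2 fold change of -2.41 (SE 0.09, adjusted p 1.23e-20). SLC25A36, the other pyrimidine nucleotide carrier, had 0.18 (SE 0.05, adjusted p 0.00175). SLC25A32, which carries folate and FAD, rose from 31.1, 28.7 and 30.9 CPM to 83.7, 96.4 and 97.8 CPM (1.62, SE 0.06, adjusted p 1.3e-20), but 457 bases of its exons overlap DCAF13 on the other strand. SLC25A17, a peroxisomal cofactor carrier, rose by 0.75, while SLC25A26, the S-adenosylmethionine carrier, had -0.27 (SE 0.06, adjusted p 0.000132).

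Of the 4 carriers of iron and glutathione, none rose and 2 fell, against 38.6% and 40.6% of all genes. The 2 were SLC25A28, the iron carrier mitoferrin-2 (-0.73, SE 0.16), and SLC25A39, a glutathione carrier, which went from 433 to 457 CPM to 257 to 278 CPM (-0.72, SE 0.04, adjusted p 1.61e-16). Mitoferrin-1, SLC25A37, had 16.7 to 18.2 CPM in WT and 17.6 to 18.4 CPM in siTDP43 (0.04, SE 0.09, adjusted p 0.723), and SLC25A40, the relative of SLC25A39, had 0.04 (adjusted p 0.677). Of the members related to uncoupling proteins, SLC25A14 rose by 1.46 (SE 0.06), while SLC25A27 had -0.85 (SE 0.21) and SLC25A30 -0.55 (SE 0.13), both called lower. The carnitine carrier SLC25A20 had -0.10 (SE 0.12, adjusted p 0.43).

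SLC25A46, an outer membrane protein that acts in mitochondrial fission (chromosome 5, 110074754 to 110098484), had 15.4, 15.2 and 17.7 CPM in WT input and 78.6, 88.7 and 86.6 CPM in siTDP43 input. Its log2 fold change of 2.40 (SE 0.07, adjusted p 8.83e-24) was next to that of SLC25A24. SLC25A45 (chromosome 11, 65142663 to 65150142) rose from 1.85, 0.712 and 0.884 CPM to 3.53, 3.56 and 2.55 CPM (1.52, SE 0.30, adjusted p 3.68e-05), at 28 to 112 counts per library. SLC25A48, a choline carrier (chromosome 5, 135170365 to 135224326), had 5.99, 6.54 and 6.9 CPM in WT input and 4.95, 3.88 and 4.22 CPM in siTDP43 input (-0.56, SE 0.16, adjusted p 0.00214).

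The remaining 7 members were not tested in the inputs. SLC25A47 had 0 counts in all 17 libraries, and SLC25A6 had at most 2 in any library. SLC25A2, SLC25A31 and SLC25A34 had at most 6 counts in any library. SLC25A18, a glutamate carrier, had 11 to 16 counts in WT input and 2 to 4 in siTDP43 input. SLC25A41 had 2 to 10 counts in WT input and 0 to 6 in siTDP43 input.

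WT pull-down was compared with input to find mRNAs enriched with the anti-ac4C antibody. Of 39 members tested, 8 were more than 2-fold higher in IP (20.5% against 30.2% of all genes tested) and 15 more than 2-fold lower (38.5% against 27.3% of all). The median member was at a log2 fold change of -0.51 and the median gene at 0.01, and scaling by total count gave 10 higher and 12 lower. The higher members were SLC25A22, SLC25A23, SLC25A27, SLC25A28, SLC25A29, SLC25A37, SLC25A41 and SLC25A45. None of the 8 cofactor and nucleotide carriers was higher, and 5 of them were lower.

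The ADP/ATP carriers SLC25A5 and SLC25A4 were among the 15 lower in WT IP than in input. SLC25A5 had 365, 365 and 346 CPM in WT IP against 1390 to 1430 CPM in input (log2 fold change -1.97, SE 0.05), and it was above WT IgG, at 119 and 121 CPM (1.56, SE 0.06). SLC25A4 had 19.2, 19.5 and 17.6 CPM (-2.41, SE 0.09). SLC25A40 was far lower in IP (1.57, 3.39 and 2.66 CPM against 16.8 to 17.7 CPM, -2.77, SE 0.19). SLC25A48 had 181 to 257 counts in WT input and 0 in all 3 WT IP libraries, so it was at least 51.2-fold lower in IP.

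Pull-down with IgG, which has no ac4C antibody, also differed from input, and 5 members were higher in WT IgG (12.8% against 24.4% of all genes) and 18 lower (46.2% against 36.6% of all). The 5 were SLC25A10, SLC25A13, SLC25A20, SLC25A29 and SLC25A37. SLC25A29 had 58.6, 59.9 and 56.5 CPM in WT IP and 65.4 and 53.9 CPM in WT IgG, so its 11-fold excess of IP over input (log2 3.46, SE 0.10) stood beside one of 3.52 (SE 0.11) in IgG. SLC25A37 showed the same pattern, with 49.7, 60.5 and 53.7 CPM in IP, 47.6 and 54.3 CPM in IgG and 16.7 to 18.2 CPM in input. SLC25A20, with 11.9, 13.3 and 13.6 CPM in IP, was highest in IgG at 40 and 34 CPM, and SLC25A10 likewise, with 57.7 to 63.5 CPM in IP and 122 and 105 CPM in IgG. SLC25A16, SLC25A35 and SLC25A43 had 0 counts in both WT IgG libraries, which puts them below input by at least 24.7-fold, 21.5-fold and 31.2-fold. SLC25A48 had 0 counts in both as well and was at least 21.6-fold lower.

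Against IgG, 14 members were higher in WT IP (35.9% against 35.2% of all genes) and 6 lower (15.4% against 17.8% of all), and 9 of the 14 had no group at the floor. Among the 6 lower were SLC25A17, SLC25A20, SLC25A21, SLC25A25 and SLC25A46. SLC25A17 had 19.5, 21.5 and 25.5 CPM in IP and 83.8 and 78.1 CPM in IgG (log2 fold change -1.89, SE 0.09), and SLC25A25 had 11.7 to 14.2 CPM in IP and 30.2 and 33.3 CPM in IgG (-1.31, SE 0.13). SLC25A44 had 16.4, 20.4 and 19.1 CPM in IP and 1.16 and 1.65 CPM in IgG (3.71, SE 0.24), and its log2 fold change of IP over input did not pass the test (-0.20, SE 0.12, adjusted p 0.11). SLC25A35 had 7.23, 8.04 and 9.04 CPM in IP, at least 27-fold above IgG, with a log2 fold change over input of 0.34 (SE 0.18, adjusted p 0.08), and 849 bases of its exons overlap RANGRF on the other strand. SLC25A16 and SLC25A43 were at least 6.3-fold and 15.7-fold above IgG. IP was called below input for SLC25A16, while SLC25A43, with means of 4.71 CPM in IP and 9.34 CPM in input, was not called.

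A member was taken as ac4C(+) where IP was more than 2-fold above both controls. The study's own rule differs, with ratios of FPKM + 1 and a class above 5-fold over IgG. Over all genes the rule used here called 2302 in WT and 1314 in siTDP43, more than the study names. The calls below are therefore not the study's list of targets. In WT 5 members were ac4C(+), 12.8% of those tested against 15.6% of all genes: SLC25A23, SLC25A27, SLC25A28, SLC25A41 and SLC25A45. SLC25A23 had 52.5, 62.8 and 60.2 CPM in IP against 20.9 to 23.2 CPM in input and 12.1 and 10.9 CPM in IgG, with log2 fold changes of 1.41 (SE 0.09) over input and 2.32 (SE 0.13) over IgG. SLC25A28 (chromosome 10, 101370275 to 101380221) had 28.6, 26.5 and 25.9 CPM in IP, 8, 6.36 and 8.32 CPM in input and 1.75 and 3.5 CPM in IgG (1.85, SE 0.14, and 3.35, SE 0.23). In both, every IP library was above every control library.

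SLC25A27, a brain uncoupling protein (chromosome 6, 46620652 to 46645927), had 10.2, 13.1 and 12.9 CPM in WT IP, 5.36, 3.99 and 5.07 CPM in input and 4.46 and 3.81 CPM in IgG (1.34, SE 0.17, and 1.52, SE 0.23). SLC25A45 had 4.46, 4.08 and 5.45 CPM in IP against 0.712 to 1.85 CPM in input (2.05, SE 0.33), and 0 and 2 counts in the IgG libraries. Its pooled ratio of IP over IgG was 46.5 (95% counting interval over read pairs, 8.26 to 1850). SLC25A41, a relative of SLC25A23 to SLC25A25 that lies beside SLC25A23 (chromosome 19, 6426048 to 6433790), had 48, 42 and 46 counts in IP, 10, 4 and 2 in input and 0 in both IgG libraries. It was at least 6.38-fold above IgG, and its low counts limit how well it is measured. SLC25A41 passed the count filter only through its IP libraries, the group where it is high. Its call was thus favoured by the filter and is no support for enrichment.

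**Figure D2:**
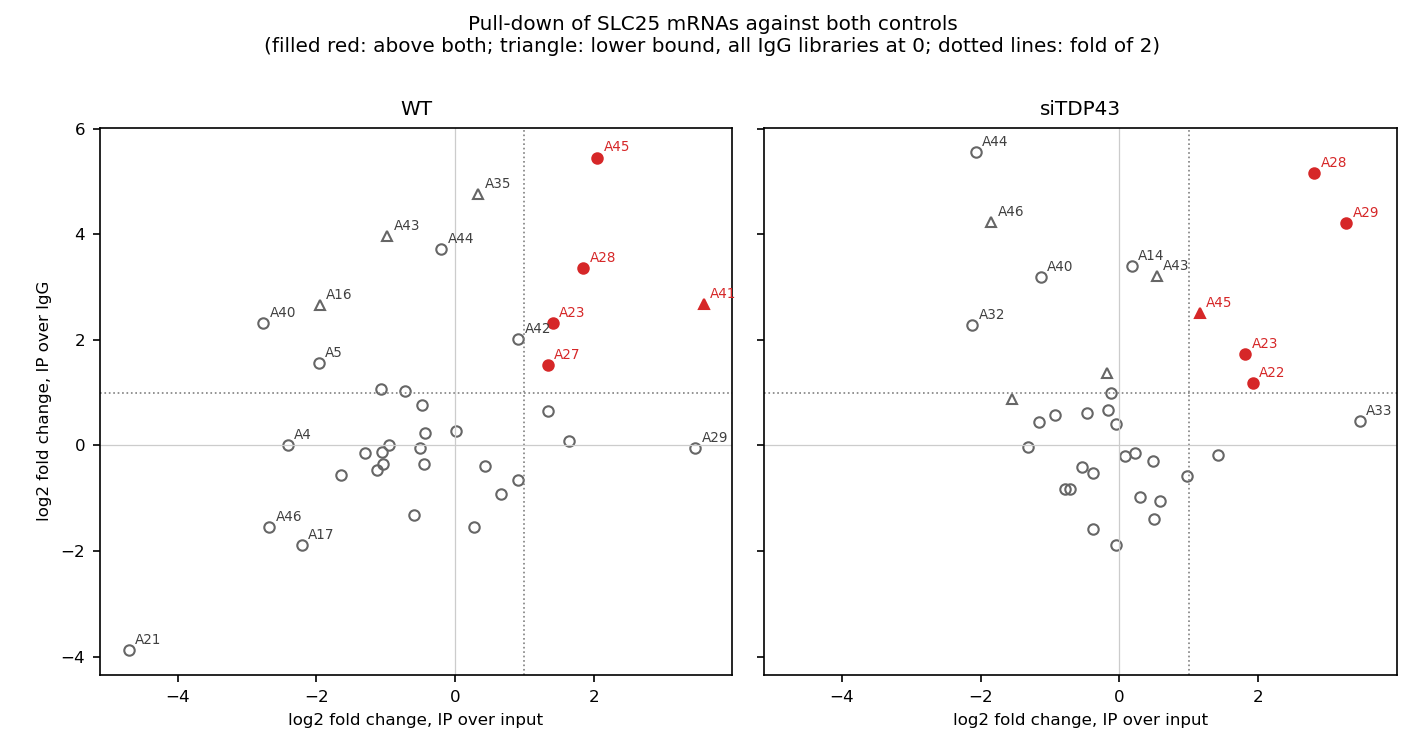
Each symbol is a member, with log2 fold change of IP over input on the horizontal axis and of IP over IgG on the vertical axis, WT left and siTDP43 right (A45 stands for SLC25A45 and so on). Filled red symbols are the 5 ac4C(+) members of each genotype, triangles are lower bounds against IgG libraries at 0, and members with both pull-downs at or near the floor, and 1 other member, are not drawn. SLC25A29 lies near 0 against IgG in WT and at 4.21 in siTDP43.

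In siTDP43, 7 of 38 members tested were higher in IP than in input (18.4% against 26.8% of all genes) and 10 lower (26.3% against 25.4% of all). The median was -0.14 over members and -0.09 over all genes, and total count scaling gave 6 higher and 13 lower. The 7 were SLC25A1, SLC25A22, SLC25A23, SLC25A28, SLC25A29, SLC25A33 and SLC25A45. SLC25A33, at 6.18 to 7.29 CPM in input, had 73, 67.1 and 60 CPM in IP, above every input library by a log2 fold change of 3.47 (SE 0.14, adjusted p 1.5e-15). The 3 most extreme falls among members with a mean of at least 100 counts were SLC25A32, with 18.3, 17.4 and 21.9 CPM in IP (-2.12, SE 0.16), SLC25A44, with 15.8, 10.5 and 11.5 CPM (-2.07, SE 0.16), and SLC25A46, with 23.7, 15.4 and 24.4 CPM (-1.84, SE 0.15). The ADP/ATP carriers were lower in IP here too, SLC25A5 with 957, 951 and 935 CPM (-1.16, SE 0.06) and SLC25A4 with 49.3, 41.5 and 49.6 CPM (-1.32, SE 0.11).

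The siTDP43 IgG libraries were the shallowest, and 8 members were higher (21.1% against 24.7% of all) and 18 lower (47.4% against 41% of all) than in input, or 8 and 9 without the members that had a group at the floor. Total count scaling gave 5 and 21. SLC25A33 had 36.7, 54.2 and 47.7 CPM in IgG, so its excess over input was present without the ac4C antibody (log2 fold change 3.004, SE 0.16). SLC25A37 had 65, 45.3 and 53.4 CPM in IgG against 17.6 to 18.4 CPM in input (1.83, SE 0.16), and SLC25A26 had 131, 125 and 99.6 CPM against 43.5 to 47 CPM (1.63, SE 0.11). SLC25A46 and SLC25A43 had 0 counts in all 3 IgG libraries, at least 75.1-fold and 7.03-fold below input. SLC25A44 had 2, 0 and 0 counts, an IgG over input ratio of 0.00422 (95% counting interval over read pairs 0.000107 to 0.0235).

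Against siTDP43 IgG, 15 members were higher in IP (39.5% against 34% of all) and 5 lower (13.2% against 15% of all), or 7 and 4 without the members that had a group at the floor. Of the 5 lower, SLC25A48 had 0 counts in every IP library and 2 in every IgG library, so both groups were under the floor. SLC25A37 was lower in IP, with 17.9, 14 and 14.6 CPM (log2 fold change -1.89, SE 0.17), as was SLC25A15, with 11.4, 11.6 and 13.6 CPM in IP and 31.2, 33.2 and 39.9 CPM in IgG (-1.59, SE 0.18). SLC25A26 had 63.9, 59.2 and 57.6 CPM in IP (-1.05, SE 0.11) and fell under the 2-fold limit, at -0.97, without siTDP43 IgG replicate 1. SLC25A14 had 68.4, 77.2 and 70.5 CPM in IP and 1.47, 8.09 and 9.96 CPM in IgG (3.40, SE 0.25), at the level of its input (66.6, 70.3 and 75.4 CPM). SLC25A46 was at least 18.8-fold above IgG.

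In siTDP43 5 members were ac4C(+), 13.2% of those tested against 10.3% of all genes: SLC25A22, SLC25A23, SLC25A28, SLC25A29 and SLC25A45. SLC25A23, SLC25A28 and SLC25A45 were ac4C(+) in both genotypes. SLC25A28 had 26.8, 29.8 and 29.2 CPM in IP, 5.05, 4.28 and 4.22 CPM in input and 2 counts in each IgG library (log2 fold change over input 2.81, SE 0.19, and a ratio over IgG of 37.8, 95% counting interval over read pairs 12.9 to 184). SLC25A23 had 27.4, 18.5 and 21.8 CPM in IP, 6.45 to 8.17 CPM in input and 7.34, 7.28 and 4.98 CPM in IgG (1.82, SE 0.20, and 1.72, SE 0.27). SLC25A22 had 21, 25.9 and 17.7 CPM in IP and 9.55, 10.5 and 7.12 CPM in IgG (1.92, SE 0.20, and 1.19, SE 0.25). SLC25A29 had 14.2, 16.8 and 13.2 CPM in IP, 1.5 to 1.77 CPM in input and 2 counts in each IgG library (3.28, SE 0.27, and a ratio of 19.7, interval 6.67 to 96.4). SLC25A45 had 8.77, 5.67 and 4.73 CPM in IP (1.16, SE 0.33) and 0 counts in IgG, at least 5.67-fold above it. Without siTDP43 IP replicate 1 its excess over input was 0.86, under the 2-fold limit, which left 4 ac4C(+) members.

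The difference in enrichment between the genotypes was tested directly, as the interaction over all 17 libraries. For IP over input, 22 of 40 members tested were higher in siTDP43 than in WT (55.0% against 31.5% of all genes) and 7 lower (17.5% against 36.3% of all). Their median log2 difference was 0.49, against -0.19 over all genes. Of the 37 members with no group at the floor, 21 were higher and 6 lower. The direction held with DESeq2 size factors (21 higher and 8 lower) and with total counts (18 and 10). The input levels that enter this contrast also changed, 17 members higher and 14 lower, and their part in it was not tested.

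**Figure D3:**
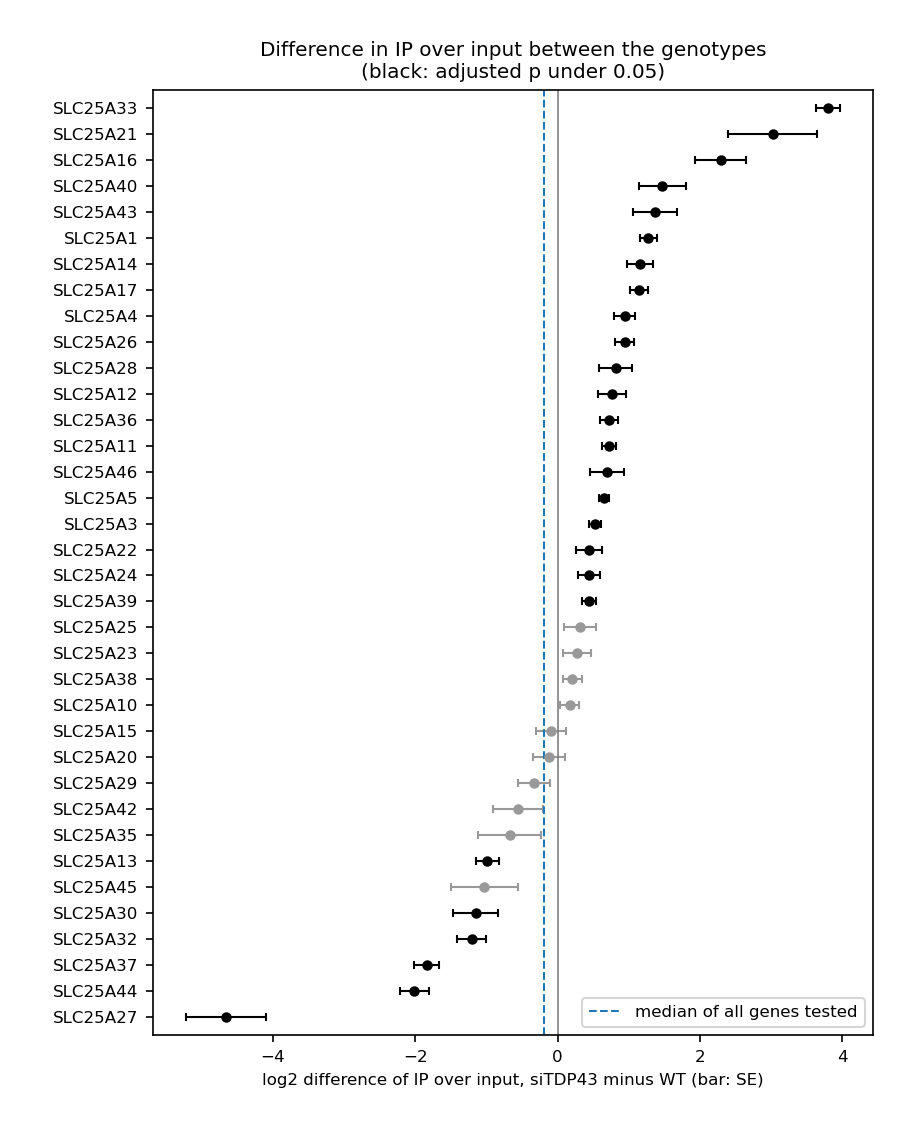
Log2 difference of IP over input, siTDP43 minus WT, with its SE, for 36 of the 37 tested members that had no group at the floor (black, adjusted p under 0.05). The dashed line is the median of all genes tested, -0.19. SLC25A33 and SLC25A27 lie at the ends, at 3.80 and -4.66.

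Of the 5 members that were ac4C(+) in WT, 2 were called lower in this test, 1 was higher and 2 did not pass it. The 5 were chosen by high WT IP over input, the value this test subtracts, so the choice itself favours a fall. The share called lower over all genes that were ac4C(+) in WT was not computed, and no conclusion is drawn from the count. Of the 2 called lower, SLC25A41 had too few counts in siTDP43 input to show a fall in enrichment. SLC25A27 went from 10.2 to 13.1 CPM in WT IP to 0, 0.405 and 0.498 CPM in siTDP43 IP (0, 4 and 4 counts), while its input held 51 to 98 counts and every siTDP43 IgG library held 0. Both pull-downs were thus at or near the floor, and the change of IP over IgG was not called (adjusted p 0.467). For IP over input the log2 difference was -4.66 (SE 0.56, adjusted p 5.5e-09). SLC25A41 had 0 counts in every siTDP43 IP and IgG library and 6, 0 and 0 in input, and its difference was called lower (adjusted p 0.0092), with no size to give because the IP group was at 0. Only its WT IP libraries held more than 10 counts, and it was not tested within siTDP43. SLC25A28 was higher (0.82, SE 0.23, adjusted p 0.0022). SLC25A23 had 0.27 (SE 0.20, adjusted p 0.22) and SLC25A45 had -1.03 (SE 0.47, adjusted p 0.053). A difference in these last 2 was not detected.

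Among the largest rises were those of SLC25A33 (3.80, SE 0.17, adjusted p 5.2e-21) and SLC25A16 (2.29, SE 0.36) of members with a mean of at least 100 counts. SLC25A16, with 2.4, 2.2 and 1.06 CPM in WT IP, had 10.5, 9.12 and 7.23 CPM in siTDP43 IP and 14.7, 9.71 and 7.12 CPM in siTDP43 IgG, where WT IgG had 0 counts. Neither rise was seen against IgG. For the change of IP over IgG, SLC25A33 was not called, and SLC25A16 was called lower, with no size because WT IgG was at 0. Below SLC25A27, the largest falls were SLC25A44 (-2.01, SE 0.20) and SLC25A37 (-1.84, SE 0.18). SLC25A44 had means of 21.5 CPM in WT input, 59.4 in siTDP43 input, 18.7 in WT IP and 12.6 in siTDP43 IP. Against IgG its IP was called higher in both genotypes, and the change of IP over IgG was not called. Of the 8 cofactor and nucleotide carriers, 6 were higher and 1 lower, SLC25A32, against 31.5% and 36.3% of all genes. For the change of IP over IgG, 4 were higher, SLC25A32 among them, and 3 lower, SLC25A16 among them, against 34.9% and 25.9% of all.

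For IP over IgG, 16 of 40 members were higher in siTDP43 than in WT (against 34.9% of all genes) and 9 lower (22.5% against 25.9% of all). A group was at the floor in 13 of the 40, and of the other 27 members 12 were higher and 8 lower. With DESeq2 size factors the balance over all 40 turned to 11 higher and 12 lower, and the median of all genes moved by -0.21. SLC25A29 was called higher (adjusted p 1.4e-11), with 65.4 and 53.9 CPM in WT IgG and 2 counts in each siTDP43 IgG library, which gives its difference no size. SLC25A17 (2.53, SE 0.15) and SLC25A14 (3.91, SE 0.29) were higher, and SLC25A37 (-1.91, SE 0.20), SLC25A15 (-1.77, SE 0.26) and SLC25A38 (-1.49, SE 0.17) were lower. SLC25A38 had 38.1, 36 and 34.9 CPM in WT IP and 16.8 and 18.3 CPM in WT IgG, and it had 53.9, 52.9 and 43.7 CPM in siTDP43 IP and 63.9, 63.1 and 77.6 CPM in siTDP43 IgG. The WT comparison rests on 2 IgG libraries and the siTDP43 comparison on the shallowest libraries, and the part of this depth in the differences was not tested.

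**Figure D4:**
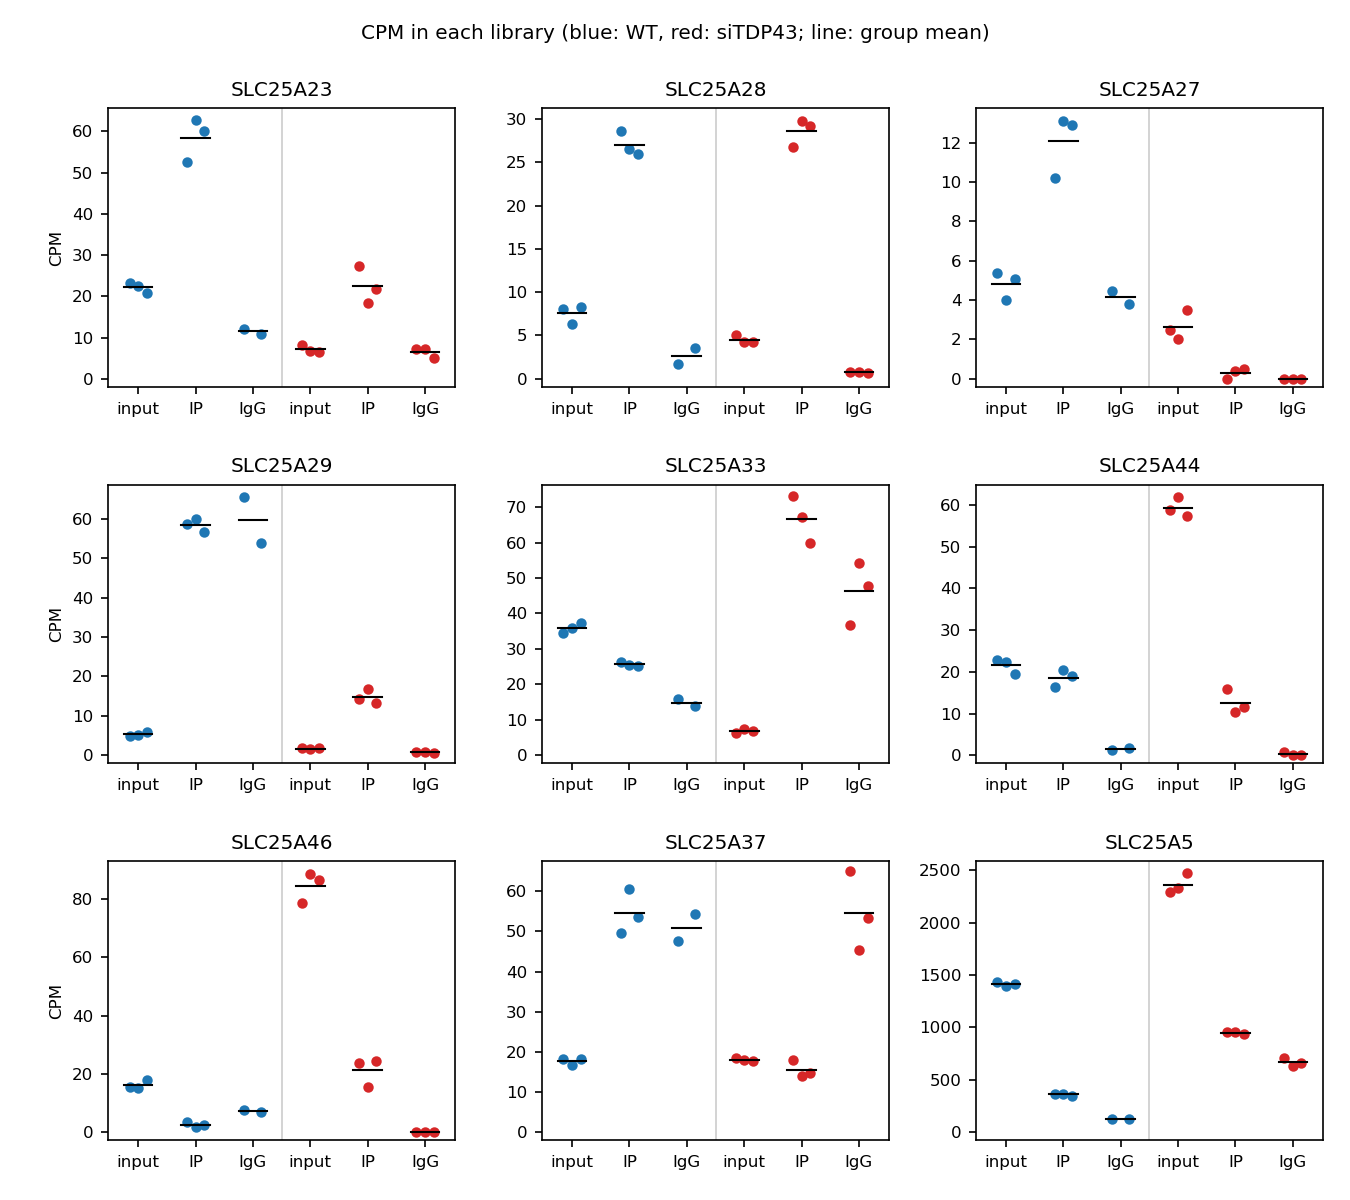
CPM in each library of 9 members (blue WT, red siTDP43, lines are group means), each panel on its own scale from 0. SLC25A23 and SLC25A28 have IP above both controls in both genotypes, SLC25A27 has IP above both controls in WT and below input in siTDP43, and SLC25A29, SLC25A33 and SLC25A37 have IgG levels above input in at least 1 genotype.

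Exon base composition differed among the members. The 7 members that were ac4C(+) in either genotype had a median exonic GC content of 59.2%, against 48% in the 32 other members tested in WT and 49.7% in all genes tested. The 7 include SLC25A41, which was tested only through its high WT IP. Across the 39 members, GC content and log2 IP over input in WT had a Spearman rho of 0.47, and across all 14751 genes 0.36. In siTDP43 these were 0.44 over 38 members and 0.27 over all genes. Against IgG the rho was 0.19 in WT, over members and over all genes. In siTDP43 the rho against IgG was -0.18 over members and -0.13 over all genes. For the input difference the rho was -0.50 over 38 members and -0.32 over all genes. These are correlations across genes that share their libraries, and the part of GC content in the results was not tested.

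The letters TCCCAGCT, which the study gives as a motif of enriched mRNAs in these same libraries, were searched on the sense strand of exons. They were in 8 of 39 members tested in WT (20.5%) and in 19.7% of all genes tested. Of the 7 ac4C(+) members, 1 held it, SLC25A45. Its site is shown, at hg19 chr11:65143574-65143603 (minus strand, untranslated part of an exon), with capitals marking the letters searched.
SLC25A45 site: tgctggtgacaTCCCAGCTcctgtcctgtg

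TGTGTG, a repeat of the kind TDP43 binds, was in the exons of 22 of the 39 members (56.4%) and of 66.0% of all genes tested. The members had a shorter median exon length, 2370 against 3014 bases. Pooled over their exons, matches per kb were 0.774 against 0.597 over all genes tested. Overlapping matches were most numerous in SLC25A44, with 21, and SLC25A22, with 14, and no other member had more than 5. The pooled density leans on these 2 members, so it does not describe the family as a whole.

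Genes that act around the carriers were read from lists. Of 12 genes of the carrier import route, 6 rose and 5 fell in siTDP43 input, against 38.6% and 40.6% of all genes. TOMM40, the import pore, had a log2 fold change of -2.56 (SE 0.07), TOMM70A, the receptor for carrier precursors, -1.36 (SE 0.06), and TIMM9, a small TIM chaperone, -1.57 (SE 0.05). FXC1, the table's name for the small TIM gene TIMM10B, rose by 1.49 (SE 0.06), and TIMM22, the insertion channel, had 0.03 (SE 0.05, adjusted p 0.669). For IP over input the difference between genotypes was higher in 10 and lower in 1 of the 12, against 31.5% and 36.3% of all genes. IgG moved as well, as 7 of the 12 were higher in siTDP43 IgG than in input (24.7% of all) and siTDP43 IP over IgG lay between -0.91 and 0.39 on the log2 scale. For the change of IP over IgG, 6 were higher and 3 lower, against 34.9% and 25.9% of all, and TOMM40 was at -5.76 (SE 0.17). Of 18 tested genes for other mitochondrial membrane transporters, 12 rose and 5 fell in input, against 38.6% and 40.6% of all genes, among them MTCH1, an outer membrane relative of the carriers (-2.92, SE 0.05), and SFXN1, a serine carrier (1.89, SE 0.04).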

How the data were processed

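The sample titles and descriptions gave the group and replicate number of each of the 17 libraries. Poly(A) RNA had been made into Smart-seq2 libraries. The authors trimmed the reads (Trim Galore 0.6.7), aligned them to hg19 (STAR 2.7.10a) and counted those with a unique position per gene (featureCounts 2.0.2). The deposited table holds these raw counts, with no normalization, and each gene's exon positions and length. The submitters' processing notes list a mouse build, but the table's positions are on hg19. The annotation release, strand use and counting of mates are not given in the sources used here. No molecular identifiers were used, so counting intervals cover counting error only. The spike-in was left out, and enrichment is relative within a library.

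Each WT input library held between 27718784 and 36583436 counts, each WT IP library between 19615316 and 21066215, and the pair of WT IgG libraries 9022250 and 9466855. For siTDP43 the totals lay between 24542434 and 31030950 (input), between 8610070 and 15736165 (IP) and between 3013989 and 3436811 (IgG). Members took 0.226 to 0.516% of a library's counts. Replicates differed by more than sampling noise (chi-square per degree of freedom 3.23 to 9.17), so none was counted as a duplicate.

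The whole table was tested in R 4.3.3 with edgeR 4.0.16 (two-sided quasi-likelihood F test, TMM, filterByExpr at a minimum count of 10), with Benjamini-Hochberg adjustment over all genes tested. The fits held 6 libraries for the inputs, 8 for WT, 9 for siTDP43 and 17 for the interactions. Calls needed an adjusted p under 0.05, and within a genotype also a fold above 2. The fits for the inputs and for the change of IP over input were tested on simulated data with few changed genes. For the inputs, 96.4% of log2 changes of 1 were recovered, and for the change of IP over input 65.6%. Log2 changes of 2 were recovered at 100% in both, and 5.77% and 5.08% of calls were false. The other contrasts were not simulated. Libraries with the same replicate number did not deviate together (19 pairs, correlations -0.024 to 0.073), so no block was used. The alternatives were DESeq2 1.42.0 and its size factors, total counts, other count filters, halved counts, other sets of libraries, the replicate block, glmTreat, limma 3.58.1 on log2(FPKM + 1), a higher fold over IgG, and each library left out.

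The members and the gene lists were chosen with earlier results of these data known. Values in every library were given by rule for SLC25A48, the ADP/ATP carriers, each ac4C(+) member and, in each of 9 contrasts, the 3 largest rises and 3 largest falls among called members with a mean of at least 100 counts, apart from 1 member that is counted but not reported here. Exon GC content and motifs were read from GRCh37 at the table's positions, and promoters from RefSeq (GRCh38.p14), where all 45 symbols matched and 37 had a promoter window.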

Additional observations from a re-analysis of the deposited data

Results flagged for a closer look

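By the interaction test, enrichment in siTDP43 was higher in 22 members and lower in 7 for IP over input, against 31.5% and 36.3% of all genes. For IP over IgG it was higher in 16 and lower in 9, against 34.9% and 25.9% of all, and this turned to 11 and 12 with DESeq2 size factors. Without the members that had a group at the floor, 21 were higher and 6 lower for IP over input, and 12 were higher and 8 lower for IP over IgG. Those below were also called in opposite directions within WT and within siTDP43. No group had over 3 libraries, so single libraries were not tested as outliers.

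SLC25A27 was above input in WT IP and below it in siTDP43 IP, a log2 difference of -4.66, with 0, 4 and 4 counts in siTDP43 IP and 0 in every siTDP43 IgG library. Against IgG, SLC25A25 went from below to above, a log2 difference of 2.36, on 6 to 16 counts in siTDP43 IgG. SLC25A42, which transports coenzyme A, went the other way, a log2 difference of -3.35, with 14 and 26 counts in WT IgG and 26 to 60 in siTDP43 IgG. SLC25A46 (adjusted p 2.33e-14) and SLC25A21 (adjusted p 5.63e-08) had 0 counts in every siTDP43 IgG library, so their differences have no size. SLC25A21 had 0 to 6 counts in WT IP, and SLC25A46 had 44 to 82.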

How the results depend on the processing

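Counts of members called kept within 1.5 times their main value in 214 of 218 settings. With glmTreat against a 2-fold change, members lower in siTDP43 IP than in IgG went from 5 to 3 and siTDP43 ac4C(+) members from 5 to 3, by construction a stricter test, and a fold over IgG above 5 also left 3 ac4C(+) members. Total count scaling gave 5 members higher in siTDP43 IgG than in input in place of 8, and the cause was not tested. Of 69 values of named members, none changed sign in 670 settings, and 8 settings took a called value under its threshold. SLC25A26 in siTDP43 IP over IgG was -0.84 with total counts, -0.97 with all 17 libraries in 1 fit and -0.97 without siTDP43 IgG replicate 1. SLC25A45 in siTDP43 IP over input was 0.81 with total counts and 0.86 without siTDP43 IP replicate 1. By glmTreat both lost their call, as did SLC25A22 in siTDP43 IP over IgG (adjusted p 0.204). Leaving out single libraries gave 20 to 22 members higher and 6 to 8 lower in the change of IP over input. The replicate block, for numbers that did not pair the libraries, gave 21 higher and 7 lower there, 14 higher and 9 lower for IP over IgG, and 5 ac4C(+) members in each genotype. Total counts shifted the median log2 change of all genes by up to -0.55, in siTDP43 IgG over input. Depth limits the IgG contrasts of siTDP43, whose libraries held 3013989 to 3436811 counts, and those of WT rest on 2 IgG libraries.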
